A study of Mus musculus with 6 samples.

Results

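The integrated stress response and the unfolded protein response were examined here as 47 genes, chosen by name, in senescent and proliferating mouse hepatic stellate cells. Each gene was read from its brightest probe set, among those that the platform annotation gives to that gene alone, and all 47 had one, out of 18194 genes measured. They comprise 24 targets of the transcription factor ATF4, 16 chaperones and degradation factors of the endoplasmic reticulum (ER), and 7 sensors and regulators. Hepatic stellate cells are the vitamin A storing pericytes of the liver, which turn into matrix-producing myofibroblasts after injury. All cells carried the transgenes CMV-rtTA and TRE-GFP-shRNA.p53.1224 on a C57Bl/6 background, in which doxycycline, through the reverse transactivator rtTA, switches on a green fluorescent marker with a hairpin RNA against p53. Cells of the 3 proliferating arrays were given 1 ug/ml doxycycline, and their labels state a p53 knockdown. Those of the 3 senescent arrays had the control treatment and express p53, by their labels. Doxycycline, p53 status and growth state (proliferating or senescent) therefore change together between the groups and cannot be told apart. The cells were grown in DMEM with serum. Whether arrays of 1 group stem from different animals or cultures is not stated, so the p-values cover the spread among these samples alone, and that spread may be technical.

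Cells answer misfolded protein in the ER, amino acid shortage and other stresses by phosphorylating the translation factor eIF2. This slows most translation and favours that of ATF4, which then induces genes for amino acid synthesis and uptake, redox balance and, through CHOP, cell death. The kinase PERK (Eif2ak3) joins this pathway to the ER, where the further sensors IRE1 (Ern1) and ATF6 induce chaperones and degradation factors, IRE1 by splicing the mRNA of Xbp1. These pathways act in good part through translation, phosphorylation, splicing and proteolysis, which expression arrays do not measure. Activated stellate cells secrete large amounts of collagen, and folding of secreted protein loads the ER.

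The values are log2 expression levels per probe set, and array medians lay between 6.16 and 6.19. Principal component 1 (68.1% of the variance) split senescent from proliferating arrays, and component 2 (12.4%) set proliferating replicate 1 (17.7) apart from the rest (-12.34 to 4.82). The target of the hairpin is not analysed here, so the labels were checked with the p53 target genes Cdkn1a and Mdm2, which were higher in senescent cells by 1.74 ± 0.08 and 1.21 ± 0.07 (log2, SE, n = 3 per group). Probe sets for poly-A spike-in RNA, added before labelling, read higher on senescent arrays by 0.54 ± 0.15 (SE). By an exact permutation test (two-sided), p was 0.1, and 3 against 3 arrays allow none smaller. Scaling to these spike-ins, a setting that was added once the data had been seen, moved the median of all genes by -0.54, so every change below is a change against most other genes measured. Of 12 stellate cell and fibroblast markers, 9 exceeded background, set at 5.57 from the upper end (95th percentile) of 44 probe sets for olfactory receptors, while Lrat, Reln and Gfap did not. The mean over these 12 was 10.51 to 10.57 on proliferating and 10.24 to 10.25 on senescent arrays, and 5 of them fell. All 6 mesothelial markers exceeded it and 5 lay above 10, with a mean over the list of 11.15 to 11.40 on proliferating and 11.21 to 11.23 on senescent arrays. Of these, 3 rose and 2 fell, and the part of either marker list in the results was not tested. In such bulk samples fewer cells of a type and less RNA per cell cannot be told apart.

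To describe the promoters of these genes, promoter windows of RefSeq (assembly GRCm38.p6, 250 bases before to 50 after each start site) were searched on both strands. The motifs were the core of the C/EBP-ATF response element that ATF4 binds, TGATGNAA, and ER stress elements I and II. ATF6 binds the ER stress elements together with NF-Y. Their fixed letters are the capitals in the sequences below, with any base allowed at the letters in lower case. Windows were held for 40 of the 47 genes, and those of Aldh1l2, Cth, Slc7a5, Slc7a3, Ppp1r15b, Atf6 and Manf were not among them. No matches of different motifs overlapped. The ATF4 core was found for 7 of 20 ATF4 targets (35%) and 1 of 15 ER genes, against 4.51% of 27025 genes in the table. The matches of the 7 ATF4 targets are shown with 6 bases on either side, 5′ to 3′ on the strand of the match, and capitals mark the fixed letters of the core.
Asns (chr6:7693219-7693238, minus strand): gccacaTGATGaAActtccc
Chac1 (chr2:119351043-119351062, minus strand): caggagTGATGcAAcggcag
Nupr1 (chr7:126625567-126625586, plus strand): cctgtcTGATGcAAtctggc
Pck2 (chr14:55540157-55540176, minus strand): agatacTGATGtAActttga
Slc7a11 (chr3:50443647-50443666, plus strand): gcatgaTGATGcAAattctc
Slc7a11 (chr3:50443666-50443685, minus strand): tgtggcTGATGcAAacctgg
Trib3 (chr2:152344033-152344052, plus strand): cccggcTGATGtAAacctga
Vldlr (chr19:27216814-27216833, minus strand): gagcgcTGATGcAActattg

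The 7 genes include members that rose in senescent cells, that fell and that did not pass the test, as given below. ER stress element I was found for 8 of 15 ER genes (53.3%) and for 0 of 20 ATF4 targets, against 0.137% of all genes (37 of 27025). These matches are shown without flanking bases, with the fixed letters in capitals. No gene that holds one passed the test in the comparison below, where 20.0% of all genes did.
Calr (chr8:84847075-84847093, plus strand): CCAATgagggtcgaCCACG
Canx (chr11:50325800-50325818, minus strand): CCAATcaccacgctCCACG
Creld2 (chr15:88819520-88819538, minus strand): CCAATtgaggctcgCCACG
Dnajc3 (chr14:118937827-118937845, plus strand): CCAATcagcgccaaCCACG
Hsp90b1 (chr10:86705533-86705551, plus strand): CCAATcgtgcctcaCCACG
Hsp90b1 (chr10:86705638-86705656, minus strand): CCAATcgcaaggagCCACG
Hspa5 (chr2:34772025-34772043, plus strand): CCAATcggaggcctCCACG
Pdia6 (chr12:17266491-17266509, plus strand): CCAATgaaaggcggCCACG
Syvn1 (chr19:6046532-6046550, plus strand): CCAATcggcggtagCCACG

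Herpud1, an ER membrane protein that assists degradation, had 1 match to each of the ATF4 core and ER stress element II, the latter found in 0.0444% of all genes.
Herpud1 (chr8:94386311-94386330, minus strand): gcgggcTGATGcAAcccgcc
Herpud1 (chr8:94386377-94386387, plus strand): ATTGGgCCACG

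A match describes the letters in the window and is not evidence of binding in these cells. The genes were listed for their known place in these responses, so higher shares of these motifs are built into the lists. The shares are therefore no separate support for the grouping. The bar chart of motif matches sets these shares side by side.

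**Figure D1:**
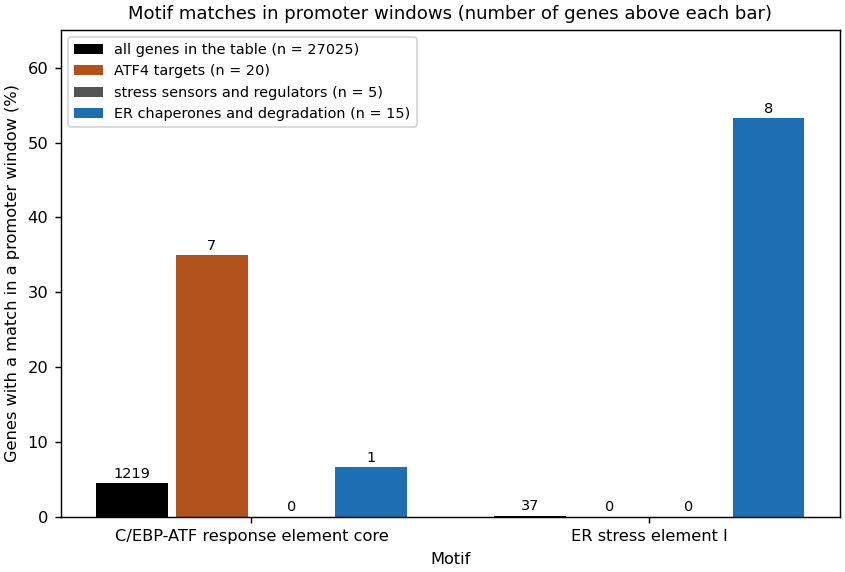
Percent of genes with at least 1 match in a promoter window, for all genes in the RefSeq table and for the 3 groups of stress response genes, with the number of genes above each bar. The ATF4 core was found in 35% of ATF4 targets and ER stress element I in 53.3% of ER genes, against 4.51% and 0.137% of all genes.

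The comparison of senescent with proliferating cells sets the stress programmes of cells with p53 expressed against those of cells with p53 knocked down. The groups also differ in doxycycline and growth state. The ATF4 targets went both ways, with Ppp1r15a, Chac1, Vldlr, Trib3 and Nupr1 higher and Aldh1l2, Pck2, Cebpb, Cth and Psat1 lower. Atf4 and 11 of 12 ER chaperones did not pass, each with a change under 0.2 in size, and Dnajb9 was higher. Of the 47 genes, 7 rose and 5 fell at the threshold of 0.05 on the adjusted p (limma, Benjamini-Hochberg over all genes), that is 25.5% of them, against 20.0% of all genes (9.49% higher and 10.5% lower). Of all genes called, 47.4% were higher, and 63.2% when arrays were centred on genes of middle level. Among the ATF4 targets 5 of 24 rose and 5 fell, among the ER genes 1 of 16 rose and 0 fell, and among the sensors and regulators 1 of 7 rose and 0 fell. At an unadjusted p under 0.05, 1 ER gene and 2 sensors or regulators were lower, beside 16.6% of all genes lower and 14.9% higher. The ATF4 target counts changed when single arrays were left out. Calls over all genes became fewer, from 1726 to between 1128 and 1562 higher and from 1919 to between 1305 and 1775 lower. ATF4 targets called higher were 3 without proliferating replicate 2, senescent replicate 1 or senescent replicate 3 and 2 without senescent replicate 2. Those called lower rose from 5 to 8 without proliferating replicate 1, against the direction of all genes, and were 3 without senescent replicate 3. Scaled to the spike-ins, 1 ATF4 target was higher and 17 lower, and 13 of 16 ER genes and 6 of 7 sensors or regulators were lower, beside 1.12% of all genes higher and 79.5% lower, so these counts follow the shift of all genes. Ppp1r15a passed as higher there (0.69), while Chac1 (0.17), Vldlr (0.07), Dnajb9 (0.07) and Atf6 (0.04) no longer passed. These genes all had the same SE of 0.19 in that fit, so the spread of each gene did not enter its call. For Ppp1r15a the SE was 0.29 in the main fit. The median log2 change was -0.045 for ATF4 targets, -0.066 for ER genes and -0.042 for sensors and regulators, beside -0.002 for all genes. The median size of change without regard to sign was 0.25 for ATF4 targets and 0.12 for ER genes, beside 0.13 for all genes. The arrays of the groups did not overlap for 11 ATF4 targets, 3 ER genes and 3 sensors or regulators, 17 of 47 in all (8 higher, 9 lower), against 37.0% of all genes (17.4% higher, 19.6% lower). A total of 45 genes were above background on every array. The exceptions were the transporter genes Slc7a3 and Slc7a11, both with arrays on either side of that level.

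**Figure D2:**
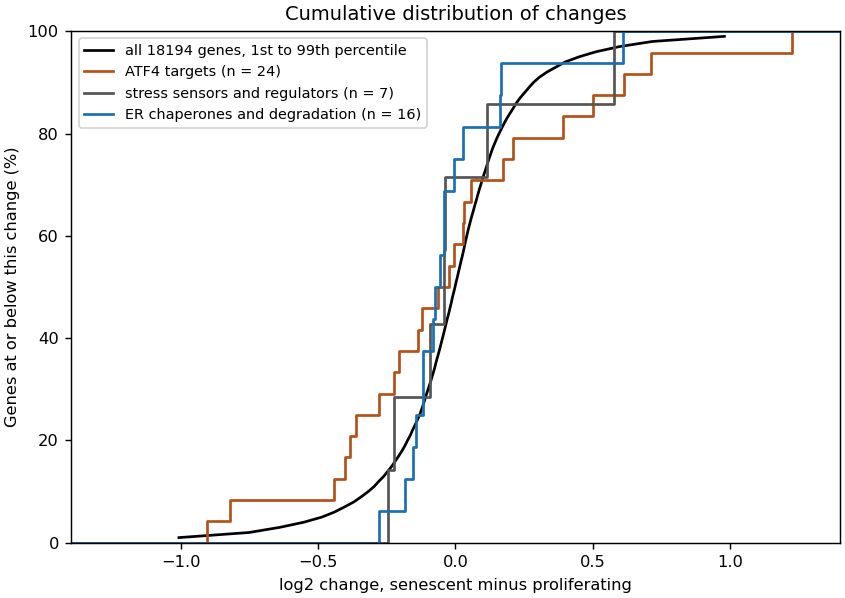
Cumulative percent of genes at or below each log2 change (senescent minus proliferating) for the 3 groups of stress response genes and for all genes, the latter drawn from the 1st to the 99th percentile. The ATF4 targets spread from -0.91 to 1.23, while all ER genes except Dnajb9 lie between -0.28 and 0.17.

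Among the upstream genes, Atf4 itself (Entrez gene 11911) read 12.62, 12.62 and 12.63 on the proliferating and 12.70, 12.50 and 12.54 on the senescent arrays. The groups overlapped, and the log2 change of -0.04 had a 95% interval from -0.21 to 0.13 (adjusted p = 0.765). Its second probe set gave 0.18 and did not pass either. Eif2ak3, the ER-resident eIF2 kinase PERK, read 9.88, 9.88 and 9.86 in proliferating and 9.66, 9.80 and 9.42 in senescent cells, where every array was lower. Its change of -0.24 ± 0.10 (SE) missed the threshold (adjusted p = 0.132), with an interval from -0.47 to -0.02. Eif2ak4, the kinase GCN2 that senses uncharged tRNA, read 8.73, 8.68 and 8.57 against 8.61, 8.67 and 8.60. Here the groups overlapped, and the change was -0.04 (interval -0.20 to 0.13). Ppp1r15b, the constitutive partner of the phosphatase that dephosphorylates eIF2, read 11.16, 11.23 and 11.12 against 11.11, 11.19 and 10.93, a change of -0.09 (interval -0.29 to 0.10).

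Atf6 (Entrez gene 226641), the ER-tethered transcription factor that is freed by proteolysis under stress, was the sensor gene that passed the test. It read 8.92, 8.95 and 9.09 on the proliferating arrays and 9.58, 9.57 and 9.55 on the senescent arrays. All senescent arrays lay above all proliferating arrays, and the level was 1.49-fold higher (log2 change 0.58 ± 0.07, SE, adjusted p = 0.00115). Its other 2 probe sets also read higher, by 0.34 (adjusted p = 0.0455 in a fit over all probe sets) and 0.30 (adjusted p = 0.145). The call held under 13 other settings, with changes between 0.41 and 0.65, but not under spike-in scaling (0.04, adjusted p = 0.852). Ern1, which encodes the kinase and ribonuclease IRE1, read 9.08, 9.23 and 9.26 against 9.31, 9.38 and 9.23, with overlapping groups and a change of 0.12 (interval -0.07 to 0.30). Xbp1, the transcription factor gene whose mRNA IRE1 splices, read 12.34, 12.46 and 12.39 against 12.09, 12.22 and 12.21. Its groups did not overlap, and the change of -0.22 ± 0.07 missed the threshold (adjusted p = 0.066). It passed when dim genes were filtered out or the variance trend was modelled (adjusted p of 0.0138 to 0.0374), and the second of its 4 probe sets gave -0.37 (adjusted p = 0.0343 over all probe sets), while the dimmest gave 0.19. Spliced and unspliced Xbp1 mRNA were not told apart here.

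Of the ATF4 targets, Ppp1r15a, Chac1, Vldlr, Trib3 and Nupr1 rose. Ppp1r15a (Entrez gene 17872), which encodes GADD34, the inducible phosphatase partner that ends the eIF2 response, read 9.49, 8.51 and 8.19 in proliferating and 10.04, 9.75 and 10.09 in senescent cells. Proliferating replicate 1 stood between the other proliferating arrays and the senescent ones, and the groups did not overlap. The level was 2.34-fold higher (log2 change 1.23 ± 0.29, SE, adjusted p = 0.0196). Leaving out proliferating replicate 1 gave 1.61 ± 0.14 (adjusted p = 4.0e-04), whereas the call was lost without proliferating replicate 2 (1.12, adjusted p = 0.0511), on leaving out senescent replicate 1, 2 or 3 in turn (1.19, 1.33 and 1.16, adjusted p of 0.0669, 0.0526 and 0.0750) and under a trended, robust variance model (adjusted p = 0.0533).

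Chac1 (Entrez gene 69065), which encodes a glutathione-degrading enzyme, read 9.09, 9.28 and 9.32 in proliferating and 10.04, 9.75 and 10.03 in senescent cells. Every senescent array was above every proliferating one, and the gene was 1.64-fold higher (log2 change 0.71 ± 0.10, SE, adjusted p = 0.00224), a call that held under the same 13 settings (0.64 to 0.81). Chac1 has a single probe set, so the settings on probe sets left its values unchanged. Trib3, a pseudokinase that restrains ATF4 and CHOP, read 8.32, 8.68 and 8.86 against 9.19, 9.05 and 9.12. It was 1.41-fold higher (0.50 ± 0.13, adjusted p = 0.0289), without overlap, but -0.04 when scaled to the spike-ins. The call of Trib3 was lost on leaving out proliferating replicate 2 or any senescent array (0.53, 0.47, 0.53 and 0.50, adjusted p of 0.0504, 0.0955, 0.0695 and 0.0827) and with the mean of its 2 probe sets (0.40, adjusted p = 0.0524).

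Vldlr, a lipoprotein receptor gene that ATF4 induces under ER stress, read 9.20, 8.68 and 8.70 in proliferating and 9.42, 9.58 and 9.41 in senescent cells. Proliferating replicate 1 was again the closest to the senescent arrays, and the groups did not overlap. The gene was 1.53-fold higher (0.62 ± 0.14, SE, adjusted p = 0.0162), all 6 of its probe sets read higher (0.28 to 0.66), and the call was lost when proliferating replicate 3 or senescent replicate 2 was left out (0.53 and 0.56, adjusted p of 0.0534 and 0.0695). Nupr1, a small stress-induced chromatin protein, read 10.41, 10.33 and 10.38 against 10.92, 10.65 and 10.73. It was 1.31-fold higher (0.39 ± 0.09, adjusted p = 0.0139), without overlap, but -0.15 when scaled to the spike-ins. Its second probe set gave 0.42.

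Of the ATF4 targets that fell, the most strongly lower were mitochondrial enzymes. Aldh1l2 (Entrez gene 216188), a mitochondrial folate dehydrogenase, read 9.70, 9.98 and 9.89 in proliferating and 8.98, 8.99 and 8.88 in senescent cells. It was 1.87-fold lower (log2 change -0.91 ± 0.09, SE, adjusted p = 3.47e-04), and the groups did not overlap. Pck2, the mitochondrial phosphoenolpyruvate carboxykinase, read 10.50, 10.78 and 10.72 against 9.94, 9.76 and 9.83, and was 1.77-fold lower (-0.82 ± 0.09, adjusted p = 7.43e-04). Its second probe set gave -0.91. Both calls held under the same 13 settings, but Aldh1l2 has a single probe set, so the settings on probe sets left its values unchanged.

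Psat1, the aminotransferase of serine synthesis, read 12.41, 12.47 and 12.54 in proliferating and 12.14, 12.10 and 12.08 in senescent cells. It was 1.29-fold lower without overlap (-0.36 ± 0.07, SE, adjusted p = 0.00749), while its second probe set gave -0.13 (adjusted p = 0.425 over all probe sets). Cebpb, which encodes the transcription factor C/EBPβ, read 12.74, 12.50 and 12.42 against 12.14, 12.18 and 12.02. It was 1.36-fold lower (-0.44 ± 0.10, adjusted p = 0.0146), but did not pass without senescent replicate 3 (-0.40, adjusted p = 0.0534). Its second probe set gave -0.49 and did not pass (adjusted p = 0.0615 over all probe sets). Cth, the cystathionine lyase that makes cysteine, read 7.11, 7.13 and 7.41 against 6.84, 6.97 and 6.62, 1.32-fold lower (-0.40 ± 0.12, adjusted p = 0.0426). This call was close to the threshold and ended without proliferating replicate 2 or 3 or senescent replicate 1 or 3 (-0.45, -0.31, -0.42 and -0.31), with median centring (-0.34, adjusted p = 0.0756) and with the replicate number as a block (adjusted p = 0.0858).

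The 250 bases before the start site are printed for the ATF4 targets with the largest rise and the largest fall among those that hold an ATF4 core, 5′ to 3′ on the strand of the gene, with the 8 bases of the match in capitals. Both matches lie on the opposite strand, from 193 bases before the start site in Chac1 and from 103 in Pck2.
Chac1 (chr2:119350992-119351241, plus strand): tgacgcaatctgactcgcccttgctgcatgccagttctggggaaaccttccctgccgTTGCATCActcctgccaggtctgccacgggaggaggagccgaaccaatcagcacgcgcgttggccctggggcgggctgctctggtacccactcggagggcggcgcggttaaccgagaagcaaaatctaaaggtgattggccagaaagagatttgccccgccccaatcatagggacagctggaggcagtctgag
Pck2 (chr14:55540016-55540265, plus strand): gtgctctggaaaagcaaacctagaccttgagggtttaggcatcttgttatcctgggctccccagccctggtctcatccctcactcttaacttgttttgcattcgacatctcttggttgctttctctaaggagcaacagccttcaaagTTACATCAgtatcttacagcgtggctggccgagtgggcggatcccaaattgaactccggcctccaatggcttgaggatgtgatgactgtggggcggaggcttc

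Of the 7 ATF4 targets with a core, 4 rose (Chac1, Vldlr, Trib3 and Nupr1), 1 fell (Pck2) and Asns and Slc7a11 did not pass, beside 9.49% of all genes higher and 10.5% lower. The calls of Trib3 and Vldlr were among those lost on leaving out single arrays. Of the 13 with a window but no core, 1 rose (Ppp1r15a) and 2 fell (Cebpb and Psat1). Cth and Aldh1l2, which also fell, had no window in the table. These counts are a description with no test.

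The other ATF4 targets did not pass. Asns, the asparagine synthetase gene that serves as a standard reporter of ATF4, read 11.53, 11.92 and 11.92 in proliferating and 11.77, 11.70 and 11.83 in senescent cells. The groups overlapped, with a change of -0.02 and an interval from -0.28 to 0.23. Ddit3, which encodes CHOP, the pro-apoptotic factor of the response, read 9.50, 9.62 and 9.53 against 9.69, 9.47 and 9.57, a change of 0.03 (interval -0.16 to 0.21). Cebpg, a partner of ATF4, read 9.15, 9.57 and 9.64 against 9.05, 9.08 and 9.08, lower without overlap, and at -0.38 ± 0.12 missed the threshold (adjusted p = 0.0621). It passed when dim genes were filtered out or the variance trend was modelled (adjusted p of 0.0277 to 0.0442). Its other probe sets gave -0.22 and -0.24 and did not pass.

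In the serine and folate pathways, whose enzymes supply glycine and folate units, Phgdh had a change of 0.17, Psph -0.13, Shmt2 -0.22 and Mthfd2 -0.12. None of these passed, and 2 of the 6 enzymes of that pathway, Aldh1l2 and Psat1, were called lower, beside 10.5% of all genes. For Phgdh, all 4 probe sets that name it alone read higher by 0.17 to 0.26, and each is of a type that can bind related transcripts. None of the 5 amino acid transporters passed, with changes of -0.28 for the cystine carrier Slc7a11, -0.21 for the leucine carrier Slc7a5, 0.06 for its partner chain Slc3a2, -0.01 for Slc7a3 and -0.06 for Slc38a2. At an unadjusted p under 0.05 the number was also 0. Over all genes 20.0% passed, and 14.9% were higher and 16.6% lower at the unadjusted level. Among so few genes these counts do not set the transporters apart. Atf5, a transcription factor under the same translational control as ATF4, had a change of 0.21 (0.05 without proliferating replicate 1) and Cbs, the enzyme that acts before Cth, 0.03.

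**Figure D3:**
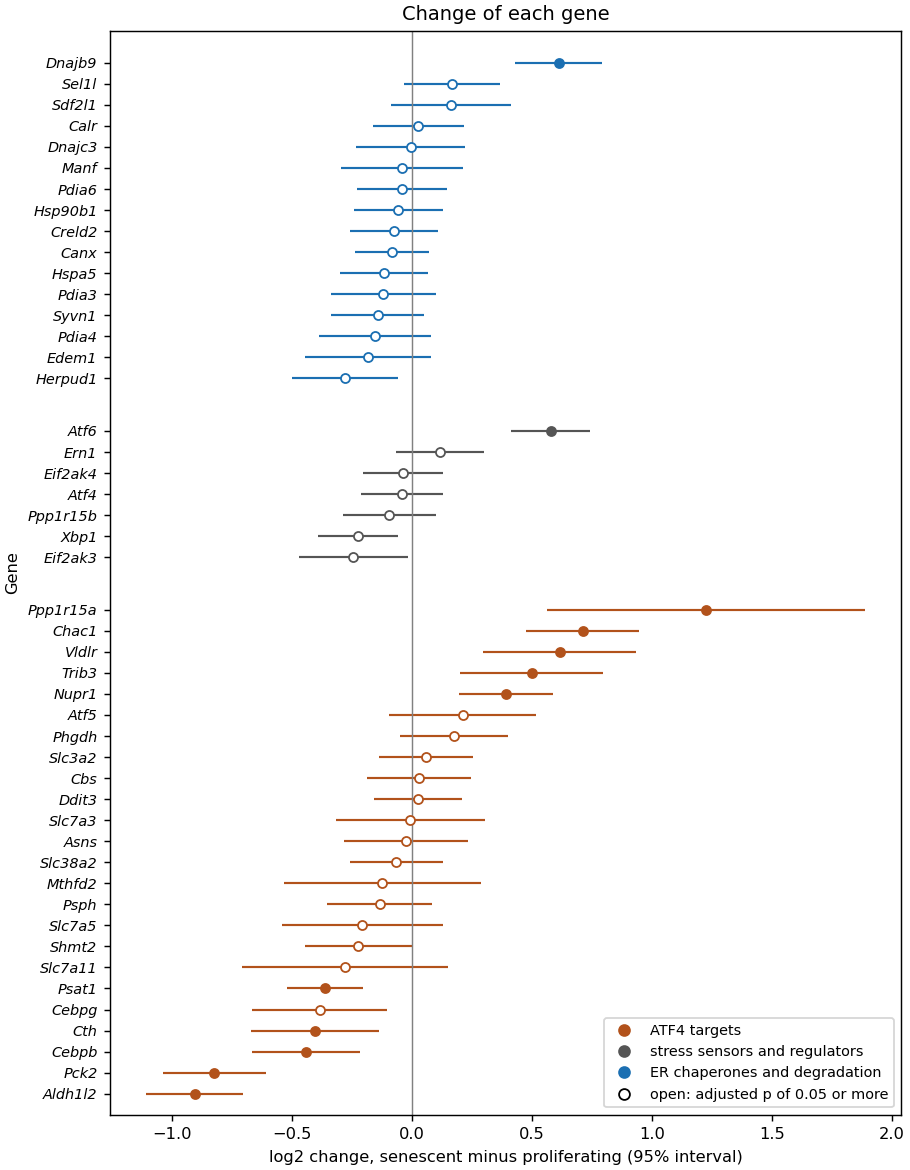
Log2 change of each of the 47 genes, senescent minus proliferating, with 95% intervals of the limma fit (3 arrays per group), grouped by role. Filled points passed an adjusted p of 0.05. They include 5 ATF4 targets on either side of 0, Atf6, and a single ER gene, Dnajb9.

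Of the 12 ER chaperone genes, 11 did not pass, where 20.0% of all genes passed. Hspa5 (Entrez gene 14828), which encodes BiP, the main ER chaperone and the usual reporter of the unfolded protein response, read 14.00, 14.21 and 14.14 in proliferating and 13.96, 14.07 and 13.97 in senescent cells. The groups overlapped, and the change was -0.12 with an interval from -0.30 to 0.07 (adjusted p = 0.375). All 3 of its probe sets read slightly lower (-0.12 to -0.19) and none passed.

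Hsp90b1, the ER form of HSP90, had a change of -0.06, and the lectin chaperones Calr and Canx had 0.03 and -0.08, although the dimmest of 3 Canx probe sets gave 0.36 (adjusted p = 0.0304 over all probe sets). The disulfide isomerases Pdia3, Pdia4 and Pdia6 had -0.12, -0.15 and -0.04. Changes of the further stress-induced ER proteins were -0.07 for Creld2, -0.04 for Manf, 0.16 for Sdf2l1 and -0.01 for Dnajc3, a co-chaperone of BiP. The 8 ER genes with an ER stress element I lay between -0.14 and 0.03, and 0 of them were called, beside 20.0% of all genes. Among so few genes that count does not set them apart. At an unadjusted p under 0.05, Herpud1 was the ER gene that was lower and Dnajb9 the gene that was higher.

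Dnajb9 (Entrez gene 27362), which encodes ERdj4, a co-chaperone of BiP that is a target of spliced Xbp1, was the exception. It read 10.15, 10.13 and 10.09 in proliferating and 10.75, 10.84 and 10.61 in senescent cells. All senescent arrays were above all proliferating arrays, and the gene was 1.53-fold higher (log2 change 0.61 ± 0.08, SE, adjusted p = 0.00128), a call that held under the same 13 settings (0.56 to 0.68). It has a single probe set, so no second measurement bears on it, and its promoter window held none of the 3 motifs.

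Among the ER degradation genes, Herpud1 read 10.34, 10.31 and 10.47 against 10.21, 10.15 and 9.91. It was lower without overlap, by -0.28 ± 0.10, and missed the threshold (adjusted p = 0.0794, and 0.0361 to 0.0362 when dim genes were filtered out at the median level or the variance trend was modelled). Sel1l, the adaptor of the ubiquitin ligase complex, had a change of 0.17 and no overlap, and Syvn1, its ligase, -0.14. Edem1, which hands misfolded glycoproteins to that complex, had -0.18.

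**Figure D4:**
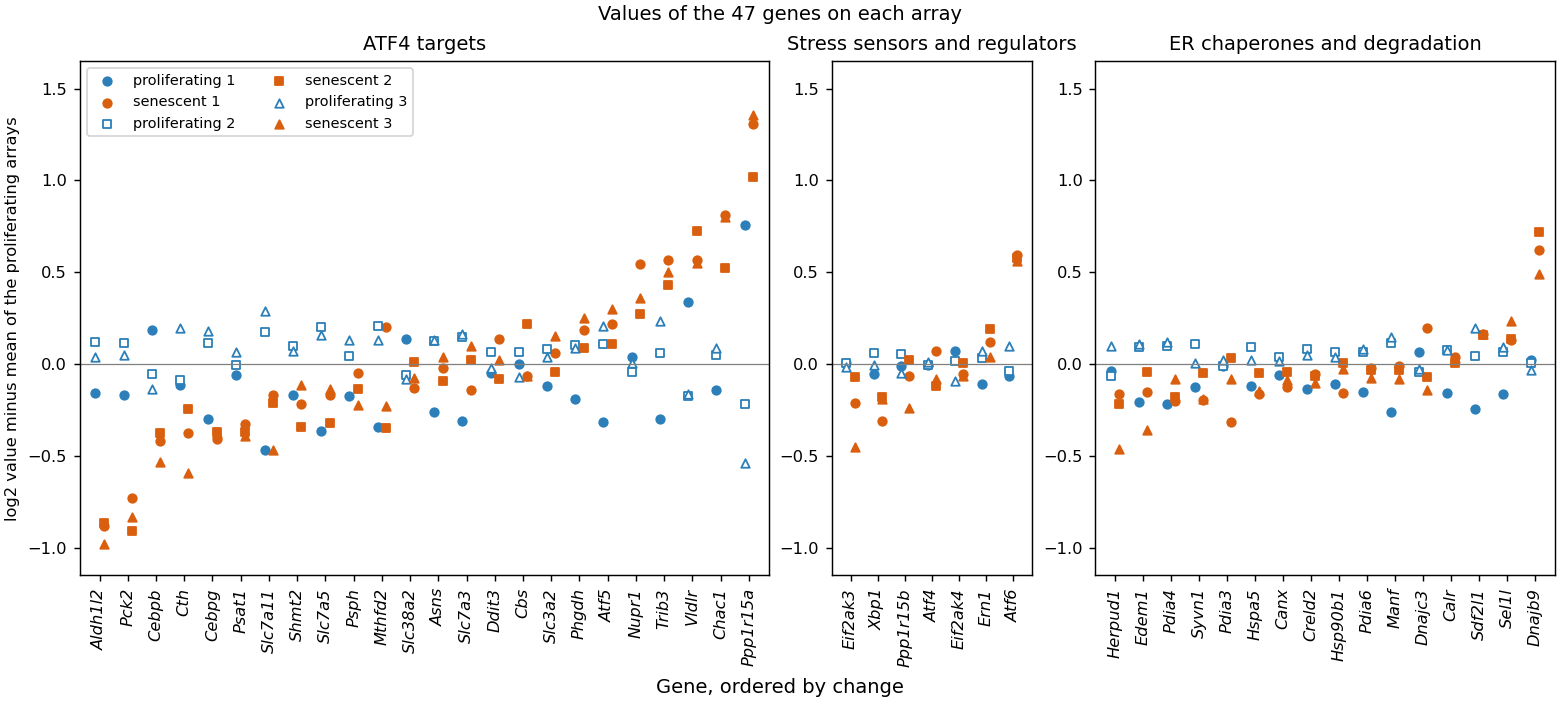
Log2 value of each gene on each array minus the mean of its 3 proliferating arrays, by role, with genes ordered by change. Blue marks are proliferating and orange marks senescent arrays, the filled blue circle is proliferating replicate 1, and it lies lowest of the proliferating arrays for 35 of the 47 genes.

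Proliferating replicate 1 read lower than the other proliferating arrays in most of these genes. It was the lowest of the 3 for 35 of the 47 genes (74.5%), against 42.2% of all genes, with 18 of 24 among ATF4 targets and 13 of 16 among ER genes. Its median distance from the mean of replicates 2 and 3 was -0.24 for ATF4 targets and -0.19 for ER genes, beside -0.02 for all genes. The distance was -0.70 for Slc7a11, -0.54 for Slc7a5, -0.51 for Mthfd2, -0.48 for Atf5 and -0.39 for Asns. In the opposite direction it was 1.14 for Ppp1r15a, 0.51 for Vldlr and 0.28 for Cebpb. The median SD within ATF4 targets was 0.17 over the 3 proliferating and 0.10 over the 3 senescent arrays, and 0.09 and 0.10 for all genes. Without proliferating replicate 1, Cebpg, Slc7a11 and Slc7a5 passed as lower (-0.53, -0.51 and -0.39, adjusted p of 0.00268, 0.0166 and 0.0195), so that 8 ATF4 targets fell and 5 rose. Over all 18194 genes, 1775 fell and 1562 rose in that fit. The median change was then -0.16 for ATF4 targets and -0.12 for ER genes, beside -0.01 for all genes. In that setting Asns had a change of -0.15, Mthfd2 of -0.29, Atf5 of 0.05, Phgdh of 0.08, Sel1l of 0.09 and Sdf2l1 of 0.04, and none of these passed. The part of whatever sets this array apart in these results was not tested.

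**Figure D5:**
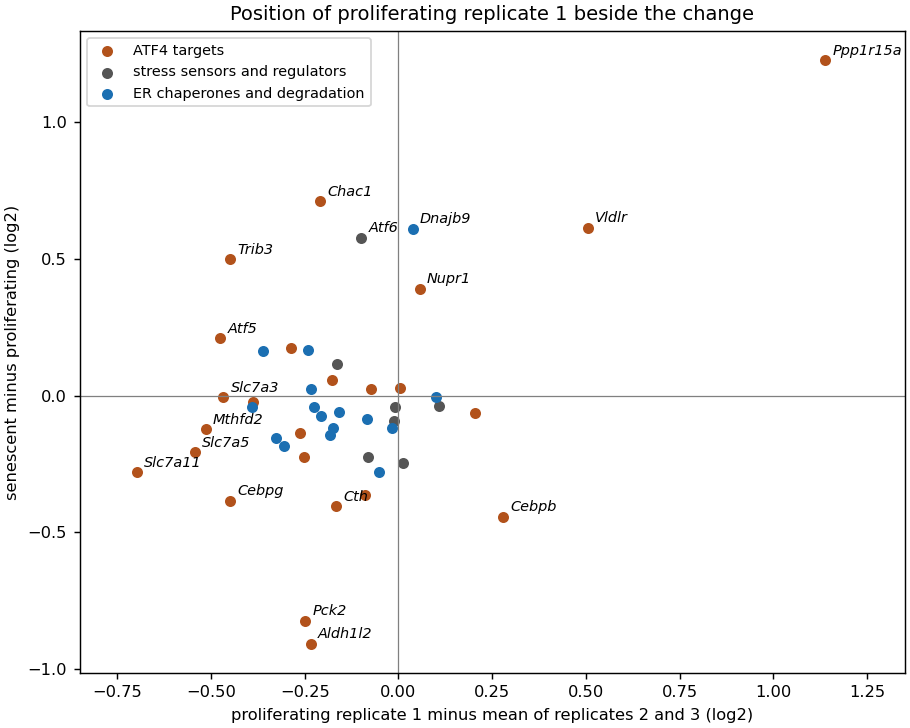
Change of each gene (senescent minus proliferating, log2) against the distance of proliferating replicate 1 from the mean of proliferating replicates 2 and 3 (log2), colored by role. Most genes lie left of 0, with Slc7a11 at -0.70, and Ppp1r15a stands alone at 1.14 on the right.

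Other genes of these pathways were read from lists chosen by role. Of 13 aminoacyl-tRNA synthetase and export genes that ATF4 induces, 1 rose and 0 fell, with a median change of -0.03. The gene that rose was Wars, the tryptophanyl-tRNA synthetase, by 0.42 ± 0.09 (SE, adjusted p = 0.014), which no longer passed without senescent replicate 1 (0.38, adjusted p = 0.0571). At an unadjusted p under 0.05, 1 was lower. Proliferating replicate 1 was the lowest proliferating array for 12 of the 13.

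Of 16 further ATF4 programme genes measured, 2 rose and 2 fell, with a median of -0.01. Sesn2, an inhibitor of mTORC1 signalling that p53 also induces, rose by 0.51 ± 0.08 (SE, adjusted p = 0.00245). Ddit4, another such inhibitor, rose by 0.48 ± 0.10 (adjusted p = 0.013), which no longer passed without senescent replicate 1 (0.44, adjusted p = 0.0531). Gpt2, the mitochondrial alanine aminotransferase, fell by 0.38, and its call was lost when proliferating replicate 3, senescent replicate 2 or senescent replicate 3 was left out (-0.33, -0.31 and -0.38) and with probe sets of suffix _s_at, _x_at and _a_at, which can bind several transcripts, left out (-0.18). Shmt1, the cytosolic counterpart of Shmt2, fell by 0.33. Atf3, a stress transcription factor chosen for mention after its values were seen, read 9.20, 6.81 and 6.90 in proliferating and 9.36, 9.05 and 9.06 in senescent cells. Proliferating replicate 1 lay within the senescent range, the change of 1.52 ± 0.55 missed the threshold (adjusted p = 0.0955), and without that array it was 2.30 (adjusted p = 4.55e-05). With the replicate number as a block Atf3 passed (adjusted p = 0.0385). Scaled to the spike-ins it also passed as higher (0.98, adjusted p = 3.1e-06). Its SE there was the 0.19 common to the genes in that fit, so its own spread did not enter that call.

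Further ER genes also went both ways. Of 31 folding and degradation genes, 2 rose and 5 fell, with a median of 0.002. Wfs1, an ER membrane protein that responds to ER stress, rose by 0.84 ± 0.13 (SE, adjusted p = 0.0026), Fkbp2, a prolyl isomerase, fell by 0.68 ± 0.08 (adjusted p = 7.0e-04), and Hspa13, an HSP70 family member of the microsomes, fell by 0.49 ± 0.12 (adjusted p = 0.0204). The call of Hspa13 ended without proliferating replicate 2 or 3 or senescent replicate 1 or 3 (-0.44, -0.46, -0.47 and -0.40) and with the mean of its probe sets (-0.26). Of 24 translocation and vesicle transport genes, 2 rose and 5 fell, with a median of -0.08. Sec24d, a coat protein of vesicles that leave the ER, fell by 0.51 ± 0.12 (adjusted p = 0.0191), and Ostc of the glycosylation complex by 0.42 ± 0.09 (adjusted p = 0.0128). Their calls ended without proliferating replicate 2 or 3 or senescent replicate 1 (-0.46, -0.51 and -0.52) and without proliferating replicate 3 (-0.38). Sec11c, of the signal peptidase, rose by 0.51 ± 0.10 (adjusted p = 0.00709), while without probe sets of those suffixes it gave 0.05.

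Of 11 measured genes of the eIF2 pathway, 2 rose and 0 fell, with a median of 0.03, and 2 were lower at an unadjusted p under 0.05. Eif2b3 and Eif2b2, subunits of the exchange factor that recycles eIF2 and is blocked when eIF2 is phosphorylated, rose by 0.55 ± 0.08 (SE, adjusted p = 0.00209) and 0.48 ± 0.08 (adjusted p = 0.0041). Of 18 heat shock genes of the cytosol and mitochondria, 4 rose and 0 fell, with a median of 0.06, and 5 were higher and 0 lower at an unadjusted p under 0.05 (14.9% and 16.6% of all genes). Hspb1, a small heat shock protein, rose by 0.69 ± 0.07 (adjusted p = 5.88e-04), and Cryab, another, by 0.82 ± 0.06 (adjusted p = 1.44e-04), although without probe sets of those suffixes Cryab gave 0.11 (adjusted p = 0.539). Hsf2, a heat shock transcription factor, rose by 0.60 ± 0.16 (adjusted p = 0.0336), a call that was lost on leaving out proliferating replicate 1 or any senescent array (0.65, 0.55, 0.57 and 0.67) and with the mean of its probe sets (0.35). The share called in these 6 further lists was 7.69% to 29.2%, beside 20.0% of all genes. Scaled to the spike-ins, Wars (-0.12), Ddit4 (-0.06), Eif2b2 (-0.06), Sec11c (-0.03) and Sesn2 (-0.03) read lower, and Wfs1 (0.30), Cryab (0.28), Hspb1 (0.15), Hsf2 (0.06) and Eif2b3 (0.0057) no longer passed.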

How the data were processed

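RNA of 3 proliferating and 3 senescent samples was extracted with Trizol and read on expression arrays. Values are log2 levels per probe set that the authors deposited after RMA, per the submitters' processing notes. Neither its version nor any batch is given in the sources used here. RMA includes quantile normalization, which takes out a shift common to most genes.

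Of 45101 probe sets, 34958 had 1 gene symbol, 932 had several and 9211 were not listed. Symbols were updated through 34754 Entrez matches to a RefSeq table. The brightest probe set stood for each of 18194 genes, and the 47 genes had 108 in all. Groups were compared by lmFit and eBayes (limma 3.58.1, R 4.3.3) with 4 residual degrees of freedom, and the median SE was 0.088. Adjusted p is Benjamini-Hochberg's over all genes, or over all probe sets where stated, and intervals are 95% and unadjusted. The fit was tested on simulated data, where it recovered 49 of 67 changes of 0.5 (log2, 73.1%), 67 of 67 changes of 1 and 66 of 66 changes of 2. A change near 0.5 or below can therefore be missed. The fit also made 15 false calls there. These changes were given to 67, 67 and 66 of 18194 genes, whereas 20.0% of all genes were called in the arrays. The share recovered when that many genes change was not tested. Spike-ins were compared by exact permutation. Other settings were the mean of a gene's probe sets, probe sets of shared suffix left out, centring on genes of middle level, 2 filters on dim genes, a trended and robust variance, a replicate block and each array left out. With so few arrays, their number limits the precision.

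The members and lists were chosen with earlier results of these data known. Array values are printed for called members, sensors and regulators, and Atf4, Ddit3, Asns, Hspa5 and Xbp1, other members are given by their change, and up to 3 called genes by size from each further list. Array values of Cebpg and Herpud1, and Shmt1 and Atf3, were added after their values were seen. Pycr1, Gdf15, Sec61g, Hsf1, Hsp90ab1 and Eif2s1 were not analysed here. Of other markers, 2 of 6 hepatocyte, 4 of 6 macrophage, 1 of 6 endothelial and 4 of 4 biliary genes exceeded background.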

Additional observations from a re-analysis of the deposited data

Results flagged for a closer look

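The poly-A spike-in probe sets, which among the comparisons of genes only the spike-in scaling uses, read higher on senescent arrays by 0.54 (log2), in 3 of 3 arrays (10.30, 10.17 and 10.65 against 9.93, 9.75 and 9.82). The hybridisation spike-ins differed by 0.09 ± 0.08 (SE, exact permutation p = 0.4).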

How the results depend on the processing

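Atf6, Dnajb9, Chac1, Aldh1l2, Pck2, Nupr1 and Psat1 kept direction and call under each other setting that held a probe set for them (12 or 13 each), spike-in scaling aside. Dnajb9, Chac1 and Aldh1l2 have a single probe set each, so the settings on probe sets left their values unchanged. Left-out arrays gave 2 to 5 ATF4 targets higher and 3 to 8 lower, 1 ER gene higher and 0 lower, 1 sensor or regulator higher and 0 lower, and 1128 (without senescent replicate 1) to 1562 genes higher and 1305 to 1775 lower. Without probe sets of suffix _s_at, _x_at or _a_at, 3 ATF4 targets were called higher, since Trib3 and Nupr1 then had no probe set. With the variance trend or genes above the median level, 1 ER gene (Herpud1) was called lower, and in those settings or with genes above background 1 regulator (Xbp1). The ATF4 target Cebpg was called lower in each of these settings too. The ATF4 targets called lower were then 6 with the variance trend or genes above background, and 5 with genes above the median level. With the replicate block, 1392 genes were higher and 1543 lower, against 1726 and 1919 without it, and among the 47 genes the call of Cth ended (adjusted p = 0.0858) and no other changed. Nothing in the titles says that same-numbered arrays pair, so the numbers were not taken as pairs. The deviations of same-numbered arrays had correlations over genes of 0.094, -0.068 and -0.153. Those of differently numbered arrays ranged from -0.213 to 0.241, and these values cannot settle whether the arrays pair. Scaled to the poly-A spike-ins, with all genes shifted as given above, 1 ATF4 target was higher and 17 lower, 0 ER genes higher and 13 lower, 0 sensors or regulators higher and 6 lower, and 204 genes higher and 14471 lower. Among the genes named, those that passed on either scale and changed sign were Nupr1 (-0.15), Trib3 (-0.041), Calr (-0.51), Cbs (-0.51), Ddit3 (-0.51), Ern1 (-0.42), Slc3a2 (-0.48), Ddit4 (-0.063), Eif2b2 (-0.056), Sec11c (-0.029), Sesn2 (-0.033) and Wars (-0.12). Atf5 (-0.33), Phgdh (-0.37), Sdf2l1 (-0.38) and Sel1l (-0.37), which passed on neither scale, also turned. The shift common to all genes sets these values, and their SE of 0.19 on the spike-in scale is the same for each gene.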
